A study of Homo sapiens with 6 samples.

Results

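The solute carrier genes are the human genes whose current symbol begins with SLC followed by a digit. They were found through the platform annotation of a cDNA array, where 150 spots carried such a name for 111 genes. SLC35F5 and SLC46A1, with 1 spot each, read the stand-in value 10 on all 6 arrays and were not tested, which left 148 spots of 109 genes, or 1.74% of the 6255 named genes. RNA came from SH-SY5Y, a human neuroblastoma line with features of immature sympathetic neurons, on day 7 of selection in geneticin (500 µg/ml). In the 3 GFP control samples the cells held the vector pEGF-C2 without an insert. The 3 DN-TRF2 samples carried pIRES2-EGFP with a dominant-negative form of TRF2, a telomere-binding protein, so that insert and plasmid backbone cannot be told apart. Samples 1 to 3 of each group came from independent experiments, per the labels. The comparison asks which transporter genes differ in RNA level when the dominant-negative protein is present. No spot carried the name TERF2, the gene of TRF2, so the labels could not be checked against it.

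Solute carriers are membrane proteins that move ions, sugars, amino acids, lipids, vitamins and metabolites, mostly by exchange or by co-transport along an ion gradient. Members of the SLC25 family exchange metabolites across the inner mitochondrial membrane, and members of SLC27 bring long-chain fatty acids into cells and join them to coenzyme A. Nerve cells use others to load vesicles with transmitter and to keep chloride, bicarbonate and pH within limits.

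Few solute carrier genes separated the groups, and none passed the test. By limma's test, Benjamini-Hochberg adjusted over all 6255 genes, 0 of 109 members had an adjusted p under 0.05 (background 0% of genes higher and 0% lower; adjusted p = 1.00 for every member). At an unadjusted p under 0.05, SLC12A8 and SLC10A3 had higher means in DN-TRF2 cells (2 of 109 members, against 2.49% of all genes) and SLC27A4 a lower one (1 of 109, against 1.07%). The arrays of the groups did not overlap for SLC12A8 and SLC10A3 on the higher side (background 4.7%), nor for SLC27A4 and SLC4A2 on the lower side (background 4.25%), which is 3.67% of members against 8.95% of all genes. Means were higher for 51 members and lower for 58, with a median difference of -0.0091 (log2 of DN-TRF2 over GFP control) against -0.0067 over all genes; without GFP control replicate 2 the members' median was 0.0095. At an unadjusted p under 0.05 in either direction, the members came to 3 against 3.57% of all genes. With the replicate block they again came to 3 (background 5.31%), without GFP control replicate 2 to 6 (8.12%) and without GFP control replicate 3 to 5 (7.71%). Under median scaling in place of quantile normalization 41 of the 109 were higher, with 1 higher and 2 lower at an unadjusted p under 0.05. The shares of all genes under median scaling are not given here, so these counts show no shift of the carriers against other genes. All differences here are on the scale of log2(intensity + 50), which understates the change of dim spots.

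Standard errors of the members ran from 0.12 to 0.34 (log2, n = 3 arrays per group), and the typical 95% interval from limma reached 0.35 to either side. On this scale the interval lay within a 2-fold difference in either direction for 106 of the 109 members, the exceptions being SLC27A4, SLC12A8 and SLC12A9. That sets no bound on the RNA of dim members, whose range the offset compresses: SLC12A7, with intensities from 0.44 to 6.63, read 5.66 to 5.79, and SLC22A17 moved from -0.30 to -0.71 with an offset of 1. Differences smaller than 0.25 were found for 96 members. In all 3 pairs of same-numbered samples 19 of the 109 members were lower and 10 higher, against 15.2% and 11.5% of all genes. Control arrays were the more spread: the SD was larger among GFP controls for 78.0% of members and 78.4% of all genes. Each value belongs to whole cultures, in which fewer cells of a type and less RNA per cell cannot be told apart.

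**Figure D1:**
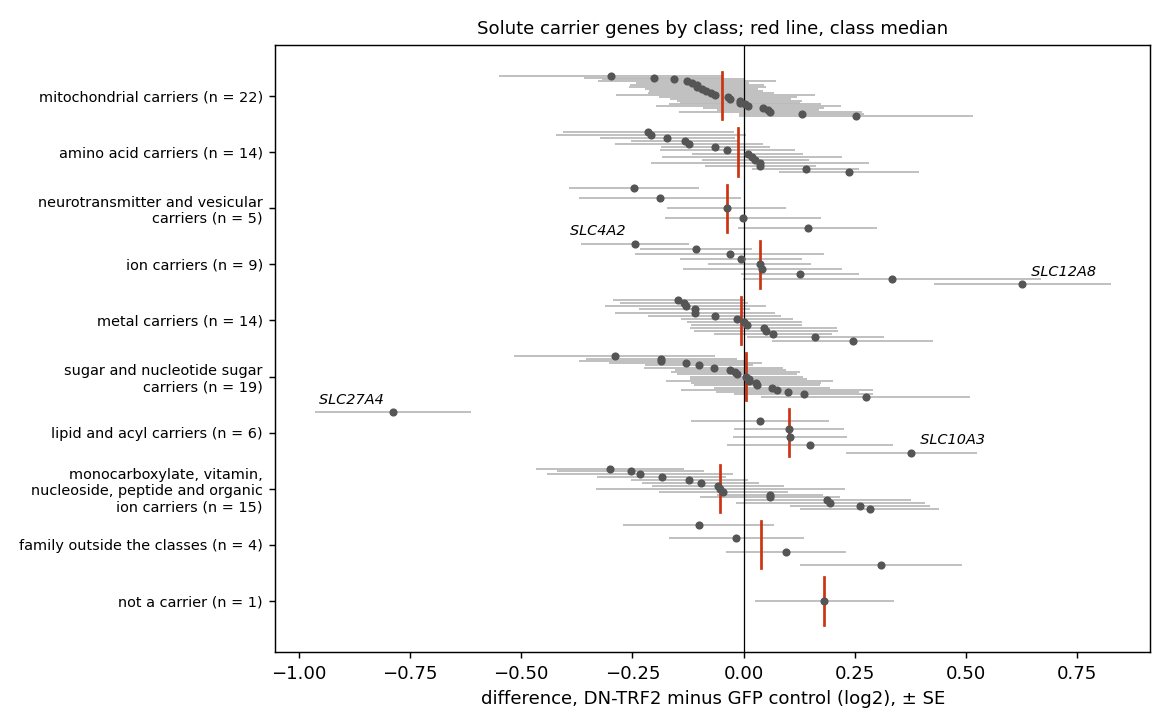
Differences of the 109 solute carrier genes between DN-TRF2 and GFP control (log2, horizontal axis; points, 1 gene each; bars, ± SE from limma), grouped by carrier class, with the class median as a red line. SLC27A4 at -0.79 and SLC12A8 at 0.63 stand outside the range of the other members, and the class medians lie near 0.

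SLC27A4, which encodes the fatty acid transport protein FATP4, had the lowest difference of all members. Its normalized signal (log2 scale) was 7.33, 6.73 and 6.99 in GFP controls 1 to 3, against 6.19, 6.41 and 6.08 in DN-TRF2 samples 1 to 3. Every DN-TRF2 array lay below every control array, and the DN-TRF2 sample was lower in each of the 3 same-numbered pairs, by the least in pair 2. The group means were 7.02 ± 0.30 and 6.23 ± 0.16 (SD, n = 3 each), a difference of -0.79 ± 0.17 (SE; 95% interval -1.18 to -0.39), or 1.73-fold lower, with limma unadjusted p = 0.00151 and adjusted p = 1.00. Of the 6255 genes 2 had a lower difference. With the replicate number as a block the adjusted p was 0.658.

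The SLC27A4 spot was dim, which bears on the size of its difference. Deposited intensities were 94.5, 41.6 and 96.4 in the controls and 21.7, 34.4 and 21.5 in DN-TRF2 cells, all above the stand-in value of 10, and its mean signal lay at percentile 4.92 of all genes. Only 11 members were dimmer. The difference came to -1.66 ± 0.31 with an offset of 1 in place of 50 and to -0.53 ± 0.13 with an offset of 100. Leaving out 1 array at a time gave between -0.94 and -0.65. Because 1 spot stands for the gene, no second spot checks it.

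The other fatty acid carrier measured, SLC27A3 (FATP3), had signals of 8.80, 9.38 and 9.25 in controls and 9.02, 9.45 and 9.40 in DN-TRF2 cells. It was higher in all 3 pairs while the groups overlapped, with a difference of 0.15 ± 0.19 (limma adjusted p = 1.00), or -0.021 without GFP control replicate 1. SLC10A3 belongs by sequence to the bile acid co-transporter family. Its signals were 10.5, 10.2 and 10.7 in controls and 10.9, 10.8 and 10.8 in DN-TRF2 cells, without overlap. The means were 10.5 ± 0.24 and 10.9 ± 0.044 (SD), a difference of 0.38 ± 0.15 (95% interval 0.044 to 0.71; limma unadjusted p = 0.0306, adjusted p = 1.00). It came to 0.25 ± 0.12 without GFP control replicate 2, the lowest array at this spot. SLC33A1, which carries acetyl-CoA into the endoplasmic reticulum, and its relative SLC33A2 differed by 0.10 ± 0.12 and 0.10 ± 0.13. Of the 6 lipid and acyl carriers 5 had a higher mean, SLC27A4 being the exception, with a class median of 0.10.

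SLC12A8, a member of the cation-chloride co-transporter family, had the highest difference of all members. Signals were 9.72, 9.11 and 9.87 in controls, against 10.3, 10.2 and 10.1 in DN-TRF2 cells. The groups did not overlap, and GFP control replicate 2 lay well below the other controls. Group means were 9.57 ± 0.40 and 10.2 ± 0.14 (SD, n = 3), a difference of 0.63 ± 0.20 (95% interval 0.18 to 1.08), or 1.54-fold higher, with limma unadjusted p = 0.0120 and adjusted p = 1.00. Without GFP control replicate 2 it was 0.39 ± 0.13, and with array weights, which count noisy arrays less, 0.40 ± 0.15. The DN-TRF2 sample was higher in each pair, by 0.61, 1.08 and 0.19. Of all genes 22 had a higher difference.

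SLC4A2, the anion exchanger AE2 that trades chloride for bicarbonate, was the 1 member with non-overlapping groups that has more than 1 spot. Averaged over its spots the signal was 11.0, 11.1 and 11.2 in controls and 10.8, 10.8 and 10.9 in DN-TRF2 cells, lower in all 3 pairs. The spots gave -0.24 ± 0.14 and -0.25 ± 0.16, and the gene -0.24 ± 0.12 (95% interval -0.52 to 0.030; limma unadjusted p = 0.0743, adjusted p = 1.00). SLC12A9, of the same family as SLC12A8, differed by 0.33 ± 0.34, the largest standard error of the members, and its groups overlapped. With the replicate block its standard error was 0.17 (limma adjusted p = 0.898). The difference turned to -0.047 without GFP control replicate 1 and came to 0.66 without GFP control replicate 3. SLC9D1, a relative of the sodium-proton exchangers, differed by 0.13 ± 0.13. The 9 ion carriers had a median of 0.036, with 5 higher and 4 lower. That median is the value of SLC12A7, whose only spot read at or under 10 on all 6 arrays. The class median was -0.010 under median scaling and -0.054 without GFP control replicate 3.

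**Figure D2:**
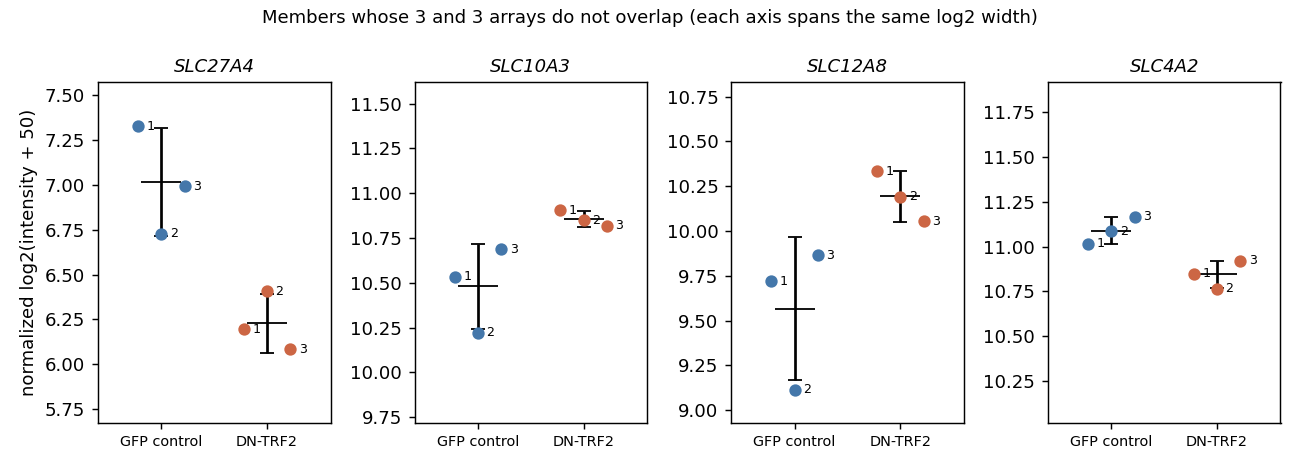
Normalized log2(intensity + 50) (vertical axis) of the 4 members whose groups did not overlap, on the 3 GFP control arrays (blue) and 3 DN-TRF2 arrays (orange), numbered by replicate; horizontal ticks are means and bars ± 1 SD. SLC27A4 and SLC4A2 lie lower and SLC10A3 and SLC12A8 higher on every DN-TRF2 array, and the control spread is widest for SLC12A8 (SD 0.40).

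The 150 bases upstream of the start listed by RefSeq (GRCh38.p14) are shown for the 3 members with an unadjusted p under 0.05, in 5′ to 3′ order on the gene's strand and in lower case since they hold none of the motifs searched. They lie at chr9:128340377-128340526 (plus strand), chr3:125211400-125211549 (minus strand) and chrX:154490630-154490779 (minus strand).
SLC27A4: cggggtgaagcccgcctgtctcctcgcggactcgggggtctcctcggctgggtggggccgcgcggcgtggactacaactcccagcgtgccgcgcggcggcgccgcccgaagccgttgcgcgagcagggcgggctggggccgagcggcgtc
SLC12A8: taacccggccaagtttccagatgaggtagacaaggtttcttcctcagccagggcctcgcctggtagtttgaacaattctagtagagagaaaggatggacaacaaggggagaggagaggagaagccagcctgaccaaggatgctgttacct
SLC10A3: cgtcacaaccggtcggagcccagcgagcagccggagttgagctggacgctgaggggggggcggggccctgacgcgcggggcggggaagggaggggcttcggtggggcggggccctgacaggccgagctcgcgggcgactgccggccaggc

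TRF2 binds the telomere repeat TTAGGG, so the windows of 300 bases around listed starts were searched for it on both strands. A window was found for 88 of the 109 members, 136 windows in all. TTAGGG occurred in 13 of the 136 (9.56%), against 9.05% of all 35116 windows, and those 13 belonged to 12 genes. Their differences ran from -0.18 to 0.066 with a median of -0.018, and 0 of the 12 had an unadjusted p under 0.05 by limma. TTAGGGTTA, which contains the repeat and the start of the next, occurred in 1 of the 136 member windows (0.735%), that of SLC3A2. Of all 35116 windows 22 held it (0.0626%), so the member share rests on a single window. SLC3A2 encodes the heavy chain that partners several amino acid carriers, and was singled out for this match after its values were seen. Its stretch at chr11:62880674-62880762 (plus strand) is shown with the match in capitals.
SLC3A2: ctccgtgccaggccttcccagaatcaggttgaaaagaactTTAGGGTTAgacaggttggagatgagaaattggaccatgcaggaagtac

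SLC3A2 differed by 0.0092 ± 0.12 between the groups, with its spots at 0.077 ± 0.15 and -0.058 ± 0.14. A core of the amino acid response element, TGATGCAA on either strand, was held by 1 of the 136 member windows (0.735%), against 0.866% of all windows. That window was of the glutamine carrier SLC1A5 (-0.13 ± 0.12). A match describes the letters only.

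Mitochondrial carriers of the SLC25 family formed the largest class, with 22 genes on 36 spots. Means were higher for 7 and lower for 15, with a median of -0.049; none had an unadjusted p under 0.05 or groups without overlap. The differences ran from -0.30 to 0.25. Without GFP control replicate 2 the split was 10 higher and the median -0.038, without DN-TRF2 replicate 2 it was 3 higher and -0.050, and under median scaling 5 were higher, at a median of -0.081. Deviations of the class from its own mean level (median over its genes) were -0.046, 0.096 and 0.0044 in controls 1 to 3, against -0.039, 0.064 and 0.0012 in DN-TRF2 samples 1 to 3. Arrays of the same number thus lay close together, and the groups overlapped.

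Within the class, SLC25A13, the aspartate-glutamate carrier citrin, had the lowest difference, -0.30 ± 0.25, with control values of 10.3, 9.35 and 9.59 against 9.71, 9.49 and 9.17. GFP control replicate 1 was the high array, and without it the difference was -0.014. SLC25A4, the ADP/ATP carrier ANT1 that exports ATP to the cytosol, differed by -0.20 ± 0.16 and was lower in all 3 pairs. SLC25A23, an ATP-Mg/phosphate carrier, differed by -0.16 ± 0.16, again lower in all 3 pairs. SLC25A51, the carrier of NAD, had the highest difference of the class at 0.25 ± 0.26, with control values of 8.30, 9.49 and 9.01 against 9.32, 9.16 and 9.07; leaving out GFP control replicate 2 gave 0.53, and leaving out GFP control replicate 1 gave -0.064. SLC25A11, the oxoglutarate-malate carrier, differed by -0.12 ± 0.13 over 3 spots, of which 2 were lower and 1 higher.

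SLC25A3, which brings phosphate into mitochondria for ATP synthesis, had 9 spots, the most of any member. Over these the gene differed by 0.044 ± 0.14, with values of 10.5, 10.2 and 10.5 in controls and 10.4, 10.5 and 10.4 in DN-TRF2 cells. The groups overlapped, and the value turned to -0.057 without GFP control replicate 2. The differences of single spots ran from -0.18 to 0.26, 6 above 0 and 3 below, and the mean signals of these spots from 8.86 to 12.3.

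**Figure D3:**
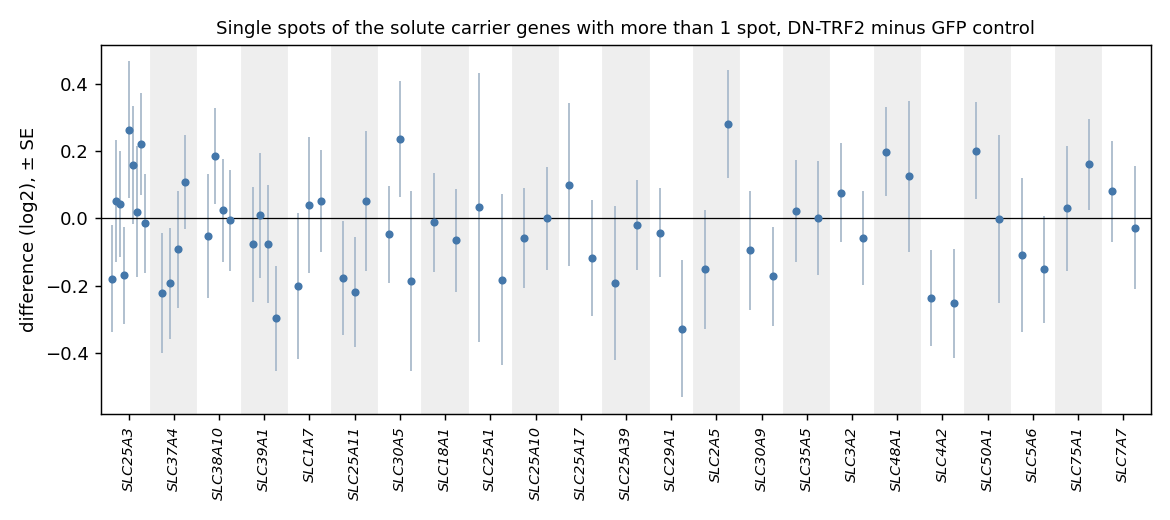
Difference between DN-TRF2 and GFP control (log2, vertical axis; bars, ± SE) at each single spot of the 23 solute carrier genes with more than 1 spot, ordered by number of spots. SLC25A3 has 9 spots between -0.18 and 0.26, and the spots of SLC4A2 both lie near -0.24.

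Of the 23 members with at least 2 spots, 9 had the same sign at all of them (39.1%, against 42.5% of all 1481 such genes). All 9 were among the 16 with 2 spots, where 48.4% of all genes with 2 spots had the same sign at both. The 7 with 3 or more each held both signs, where 27.6% of all such genes had 1 sign. Signal level differed as much: the spots of SLC37A4 that carry 1 clone accession read mean signals of 9.04 and 12.0, so levels are not compared between spots. The annotation may be wrong for some spots, and related carriers can hybridize with 1 clone.

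Amino acid carriers numbered 14 and split evenly, 7 higher and 7 lower, with a median of -0.014 and a range of -0.21 to 0.24. Without GFP control replicate 3 only 3 of the 14 were higher, at a median of -0.062. None had an unadjusted p under 0.05. SLC66A1, which lets cationic amino acids out of lysosomes, was highest at 0.24 ± 0.16 and higher in all 3 pairs: 10.1, 9.80 and 10.1 in controls against 10.5, 10.1 and 10.3. The groups overlapped. SLC7A1, the arginine and lysine carrier CAT1, differed by 0.14 ± 0.12. SLC38A7, a glutamine carrier of lysosomes, had the lowest difference at -0.21 ± 0.19. SLC43A1, a carrier of large neutral amino acids, differed by -0.17 ± 0.15. SLC1A7, a glutamate carrier with 3 spots, differed by -0.036 ± 0.15, or 0.10 without GFP control replicate 2, and SLC38A10, with 4 spots, by 0.038 ± 0.12. Of the SLC38A10 spots 1 read at or under 10 on all 6 arrays.

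Transmitter and vesicular carriers were few: 5 genes, 4 of them lower and 1 higher, with a median of -0.038. Without DN-TRF2 replicate 2 the split turned to 3 of 5 higher, at a median of 0.024. SLC6A6, the taurine carrier, read 9.21, 8.75 and 8.96 in controls and 8.69, 8.69 and 8.80 in DN-TRF2 cells. It was lower in all 3 pairs, and GFP control replicate 2 and DN-TRF2 replicate 3 overlapped; the difference was -0.25 ± 0.15 (limma unadjusted p = 0.126, adjusted p = 1.00). SLC6A8, the creatine carrier, differed by -0.19 ± 0.18. SLC18A1 loads monoamines into chromaffin-type granules and is a trait of sympathoadrenal cells. It differed by -0.038 ± 0.13, with values of 9.58, 9.31 and 9.39 in controls and 9.41, 9.26 and 9.50 in DN-TRF2 cells, and by 0.039 without GFP control replicate 1. SLC18A3, the vesicular acetylcholine carrier, was dim and differed by 0.14 ± 0.16.

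Metal carriers comprised 14 genes with 7 higher and 7 lower, a median of -0.0068 and differences from -0.15 to 0.25. Without GFP control replicate 3 the count higher was 3, at a median of -0.077. The copper carrier SLC31A1 was highest at 0.25 ± 0.18, with 9.89, 10.1 and 10.6 in controls and 10.5, 10.3 and 10.4 in DN-TRF2 cells. GFP control replicate 3 lay above all DN-TRF2 arrays, and without it the difference was 0.44. The haem carrier SLC48A1 differed by 0.16 ± 0.15, with both spots higher. Zinc carriers of the SLC39 family, which bring zinc into the cytosol, include SLC39A14, which differed by -0.15 ± 0.15, and SLC39A1, over 4 spots, by -0.11 ± 0.13. Of the zinc carriers of the SLC30 family, SLC30A9 differed by -0.13 ± 0.14 and SLC30A5, over 3 spots, by 0.0015 ± 0.13. The sign for SLC30A5 turned in 11 of 17 alternatives, and 1 of its 3 spots read at or under 10 on all 6 arrays.

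Sugar and nucleotide sugar carriers, 19 genes, had 10 higher and 9 lower and a median of 0.0064, which was -0.068 without GFP control replicate 3. SLC2A6, a member of the glucose carrier family, had the lowest difference at -0.29 ± 0.23, with 11.1, 10.6 and 11.2 in controls against 11.1, 10.4 and 10.5. The nucleotide sugar family member SLC35D4 was highest at 0.27 ± 0.23, and -0.011 without GFP control replicate 2, its low array. SLC35A4 and SLC35H1 differed by -0.19 ± 0.17 and -0.18 ± 0.19. SLC37A4, which brings glucose 6-phosphate into the endoplasmic reticulum, differed by -0.10 ± 0.12, with 3 of 4 spots lower.

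The carriers of monocarboxylates, vitamins, nucleosides, peptides and organic ions, 15 genes, had the widest typical difference of the 8 classes, a median absolute value of 0.18 against 0.11 over all genes. Of these 6 were higher and 9 lower, at a median of -0.052. Both vitamin C carriers were measured: SLC23A2 differed by 0.26 ± 0.16 and SLC23A1 by -0.25 ± 0.17, and the 95% interval of each held 0. SLC44A4, of the choline carrier family, was highest at 0.28 ± 0.16 and SLC22A17, a lipocalin receptor of the organic ion family, lowest at -0.30 ± 0.17. SLC22A17 read 6.85, 6.64 and 6.43 in controls and 6.41, 6.54 and 6.07 in DN-TRF2 cells, lower in all 3 pairs but overlapping. Below the median signal of all genes lay 9 of the 15, as did 9 of the 14 metal carriers, 4 of the 5 transmitter carriers and 3127 of all 6255 genes.

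The remaining members fell outside the classes. SLC71A3P, a transcribed pseudogene, differed by 0.31 ± 0.18 and was higher in all 3 pairs. SLC75A1, SLC67A1 and SLC67A2 differed by 0.095 ± 0.14, -0.10 ± 0.17 and -0.016 ± 0.15, of which the values of SLC67A1 and SLC67A2 turned to 0.044 and 0.093 without GFP control replicate 1. The SLC75A1 value averages a spot at 0.030 ± 0.19 and a spot at 0.16 ± 0.14, the latter at or under 10 on 5 of the 6 arrays. SLC7A6OS bears the prefix but is no carrier, being named for its place opposite SLC7A6; it differed by 0.18 ± 0.16. Without SLC71A3P and SLC7A6OS the median of the members was -0.015.

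The arrays as a whole gave the family no group separation. Deviations of the 109 members from their own mean (median over genes) were 0.041, 0.048 and -0.050 in controls 1 to 3, against 0.00047, 0.019 and -0.0057 in DN-TRF2 samples, which lay inside the control range. Across the 6 arrays the members most like SLC27A4 were SLC6A6 (Pearson's r = 0.851), SLC22A17 (0.791), SLC1A5 (0.778), SLC25A13 (0.717) and SLC25A11 (0.707). All of these had a negative difference. The array values of SLC27A4 include its own group difference, so a choice by this correlation favours members that are lower in DN-TRF2 cells. The shared sign is therefore no separate result, and the values describe 6 arrays with no test.

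Other transport genes were counted in lists beside the carriers. Of 14 listed genes of the sodium pump, which sets the gradient many carriers use, 6 were measured. These were ATP1B and FXYD genes, and no catalytic ATP1A subunit was among them. Means were higher for 4 of the 6, with FXYD3 at 0.43 ± 0.21 and ATP1B1 at -0.25 ± 0.15. Vacuolar proton pump subunits had 10 of 14 higher and a median of 0.044; ATP6AP2, an accessory subunit, differed by 0.42 ± 0.13 at a dim spot (limma unadjusted p = 0.00984, adjusted p = 1.00). ABC transporters had 5 of 7 higher. Among genes of fatty acid activation and binding, 8 of 11 were lower at a median of -0.095, with CPT1A, which takes long-chain acyl groups to mitochondria, at -0.31 ± 0.14 and FABP4 at -0.26 ± 0.15. Of the mitochondrial outer membrane and carrier import genes 8 of 16 were higher, and TOMM70, an import receptor for SLC25 proteins, differed by 0.43 ± 0.13 (limma unadjusted p = 0.00777, adjusted p = 1.00). In the amino acid stress response list 12 of 19 were lower, with PYCR1, of proline synthesis, at -0.37 ± 0.13 and CBS at -0.32 ± 0.13. None of these genes passed over all genes. Groups without overlap (8.95% of all genes in either direction) were found for 1 of 6 sodium pump, 1 of 14 proton pump, 0 of 7 ABC, 3 of 11 fatty acid, 3 of 16 outer membrane and import and 4 of 19 amino acid stress genes.

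Median deposited intensity per array ran from 480 to 712. Correlations between arrays across spots were 0.954 to 0.980 among controls and 0.987 to 0.992 among DN-TRF2 arrays. Of 20 noradrenergic neuroblast markers 12 were measured, 7 with higher means and 5 with lower, and differences ran from -0.27 to 0.46. Their mean level was 9.62 to 9.67 in controls and 9.65 to 9.73 in DN-TRF2 cells. GAP43, a growth cone protein, differed by 0.46 ± 0.17 (limma unadjusted p = 0.0266, adjusted p = 1.00), and STMN2, a neuronal tubulin-binding protein, by 0.33 ± 0.16. GAP43 was the 1 marker of the 12 without overlap between the groups (8.33%, against 8.95% of all genes). Mesenchymal markers had 7 of 10 higher (9.96 to 10.2 in controls, 10.1 to 10.1 in DN-TRF2 cells), blood markers 3 of 6 (8.80 to 9.07 and 8.86 to 9.10) and epithelial markers 6 of 10 (8.86 to 9.03 and 8.96 to 9.11). Groups without overlap were found for 1 of 10 mesenchymal, 2 of 6 blood and 0 of 10 epithelial markers. The part of the markers in the carrier values was not tested.

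**Figure D4:**
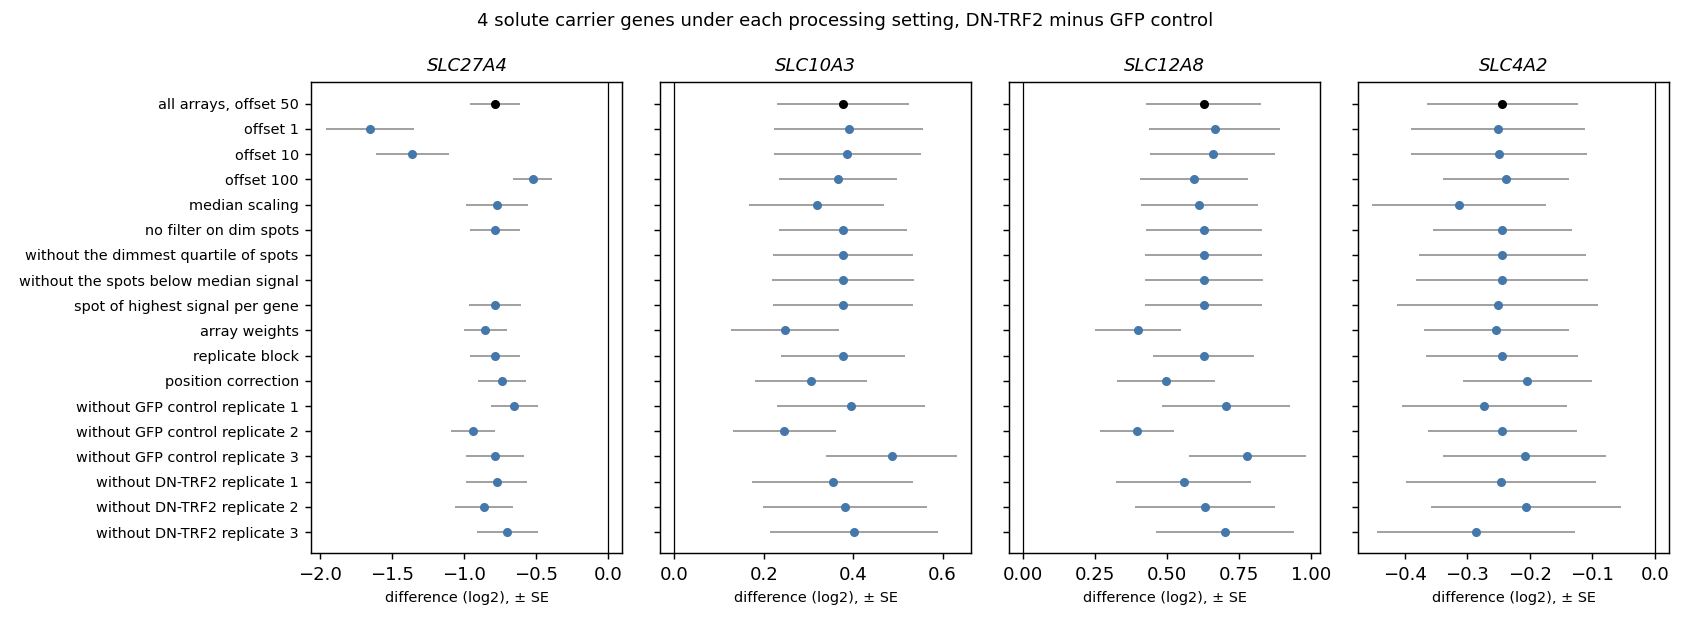
Differences of SLC27A4, SLC10A3, SLC12A8 and SLC4A2 between DN-TRF2 and GFP control (log2, horizontal axes; bars, ± SE) under each processing setting listed on the left, with the setting used in the text in black. SLC27A4 runs from -1.66 to -0.53 over 15 alternatives, having no value in those that drop dim spots, and none of the 4 changes sign.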

How the data were processed

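The deposited values are linear intensity values per spot for 6 one-colour cDNA arrays of 9600 positions, hybridized with about 5 µg of radiolabelled total RNA per the labels' protocols. How the authors read the images, treated background or scaled arrays is not stated here. The 384 blank positions (each 25th) and 47 further spots that read 10 throughout were removed, so that 9169 spots remained, of which 8451 had 1 gene symbol, 21 several and 697 none listed here. Of 8517 annotated spots 8493 matched the current gene table (GRCh38.p14) by gene ID. An offset of 50 was added, log2 taken, and arrays quantile-normalized; spots of a gene were then averaged. All 6255 genes were fitted together with limma 3.58.1 (lmFit, eBayes, R 4.3.3), two-sided, Benjamini-Hochberg adjusted, threshold 0.05; single spots were fitted alike. The procedure was tested on simulated data, in which arrays were independent and the added changes larger than the difference of any member. That run does not bear on differences as small as those here or on the pairs.

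Carrier classes follow family numbers, so SLC5A6, a vitamin carrier, stands with sugar carriers. Members named are those with an unadjusted p under 0.05, non-overlapping groups, at least 3 spots or SLC27 membership, and, per class, the 4 of smallest unadjusted p and the gene of largest absolute difference; per other list, up to 2 of smallest p. The 5 neuroblast markers with lower means are named besides. Members, lists and motifs were chosen with earlier results of these data known. Deviations from group means correlated between same-numbered arrays at 0.390, 0.296 and 0.246, so the numbers, which the labels give, were used to describe pairs. The fit used in the text has no term for the pairs, so its standard errors, intervals and p-values ignore them. Only the alternative with the replicate block takes the pairs into account.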

Additional observations from a re-analysis of the deposited data

How the results depend on the processing

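Under 17 alternatives, fixed with earlier results known, 0 genes passed limma's adjusted p under 0.05; among spots 1 passed with an offset of 1 (not a solute carrier). At an unadjusted p under 0.05, 223 of 6255 genes and 3 members were found; leaving out 1 array gave 2 to 6 members, with 6 without GFP control replicate 2 and 5 without GFP control replicate 3. The replicate block gave 3 members and 332 genes, no adjusted p under 0.445, and changed no call. The median of all members was -0.064 under median scaling and ran from -0.065 to 0.0095 with 1 array left out. Medians of all genes under these settings are not given here. Class medians that moved by more than their spread between arrays were, under median scaling, amino acid carriers (-0.071); with array weights, amino acid (0.042) and lipid carriers (0.16); without the spots below median signal, ion (0.19) and lipid carriers (0.21); without the dimmest quartile of spots, transmitter carriers (-0.16). With 1 array left out, medians ran from -0.067 to 0.015 for amino acid, -0.054 to 0.081 for ion and -0.068 to 0.026 for sugar carriers. The causes were not tested. Of 45 members named by the rule, 32 kept their sign under each alternative that gave them a value and 13, all with no call, did not; the filters on dim spots dropped some members, which then had values under 15 or 16 of the 17. The number of arrays and the stand-in value at blank positions limit what can be seen at dim spots such as that of SLC27A4.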
